A study of Mus musculus with 56 samples.

Results

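Il10 encodes interleukin-10, a cytokine that restrains immune responses, and 7 genes of its network were followed here: Il10 itself, the transcription factors Maf, Prdm1, Nfil3 and Bhlhe40, the interleukin-27 receptor chain Il27ra and the interleukin-10 receptor chain Il10ra. They were taken by name from the 47937 genes listed in both count tables of a study of helper T cells, as Il10, regulators of it known from CD4+ T cells and its receptor. CD4+ T cells of C57BL/6 mice were enriched from spleen and lymph nodes by negative selection, which removes other cell types (the study's methods, but not the labels, call them naive), and were activated with anti-CD3, anti-CD28 and IL-2 and polarized for 4 days. TH1 cells received 10 ng/ml IL-12 with anti-IL-4, TH2 cells 10 ng/ml IL-4 with anti-IFN-γ, TH17 cells IL-6 and TGF-β (each at 5 ng/ml) and IL-1β with anti-IFN-γ and anti-IL-4, and Treg cells 10 ng/ml TGF-β with both antibodies. Neither IL-10 nor IL-27 was among the added cytokines. In the Odc table, 16 WT libraries stood beside 15 from mice whose Odc exons, flanked by loxP sites, are cut out by CD4Cre, so that T cells lose ornithine decarboxylase, the enzyme that starts polyamine synthesis. In the Dohh table, 12 other WT libraries stood beside 12 from mice that lose deoxyhypusine hydroxylase, the enzyme that completes hypusine on the translation factor eIF5A. WT mice were littermates without cre, and the Cd4 promoter that drives cre is also active in precursors of CD8+ T cells. Each subset held 4 libraries per genotype in the Odc table, except 3 labelled Odc-/- in TH2 cells, and 3 per genotype in the Dohh table. The comparisons ask how the Il10 network stands in each subset when polyamine or hypusine synthesis is lost in T cells.

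Interleukin-10 is made by helper T cells of every lineage, usually late in their activation, and it signals through a receptor of Il10ra and Il10rb to STAT3. In T cells, Maf and Prdm1 (Blimp-1) are known activators of Il10, Nfil3 (E4BP4) supports its expression in several subsets, and Bhlhe40 is known to hold it down. Interleukin-27, which binds a receptor containing Il27ra, is a strong inducer of Il10 in T cells and acts in part through Maf.

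Libraries of the Odc table held 5905374 to 9145214 counts each. Between 6572148 and 12576933 were counted in those of the Dohh table. Levels are in CPM, counts scaled to library size with TMM factors, and a library without any count of a gene may still hold up to 0.5 CPM of it. Deposited counts cover whole genes, so they cannot check the loss of single exons, and Odc1 was not called in any subset of the Odc table (log2 fold change -0.40 to 0.26). Dohh was called higher in TH1, TH2 and Treg cells of its own table (log2 1.43, 1.10 and 1.15) and in the same subsets labelled Odc-/- (log2 1.26, 1.17 and 1.11). Of the Dohh exon length, 47.5% overlaps the gene Gm48551 on the same strand, and how shared reads were counted is not given in the sources used here. Libraries are therefore named below as labelled Odc-/- or labelled Dohh-/-. The T cell genes Cd3e, Cd3d, Cd3g and Lck were not called in any subset of the Dohh table. Cd4, the gene of the defining coreceptor, was at 661 to 968 CPM in WT libraries of that table and at 22.1 to 79.7 CPM in libraries labelled Dohh-/-, and it was called lower in all 4 subsets. In TH2 cells labelled Odc-/-, Cd4 (log2 -1.01), Cd3d (log2 -1.02, adjusted p = 4.91e-05) and Cd3g (log2 -1.03, adjusted p = 5.19e-05) were called lower. None of the 5 T cell genes (Cd3e, Cd3d, Cd3g, Lck and Cd4) was called in the other subsets of the Odc table, where WT libraries held 441 to 1032 CPM of Cd4. Their sum was lower without overlap in TH2 cells (1150 to 1326 against 1919 to 2224 CPM in WT) and TH1 cells (1635 to 2016 against 2285 to 2930 CPM) labelled Odc-/-, and in TH2 cells (1249 to 1759 against 2289 to 2582 CPM) and Treg cells (1665 to 2532 against 2729 to 3159 CPM) labelled Dohh-/-. It overlapped in the other 4 comparisons. Without Cd4 in the sum, TH2 and Treg cells labelled Dohh-/- overlapped with WT, whereas TH1 and TH2 cells labelled Odc-/- did not. The 4 libraries labelled Dohh-/- with Lyz2, a myeloid gene, above 1000 CPM stood apart: replicates 2 and 3 of TH17 cells at 4211 and 1205 CPM, and replicates 2 and 3 of Treg cells at 2855 and 1641 CPM. Signature genes marked each WT subset: mean levels were 930 and 235 CPM for Ifng in TH1, 58.2 and 62.1 CPM for Il4 in TH2, 339 and 29.5 CPM for Il17a in TH17 and 478 and 576 CPM for Foxp3 in Treg cells of the Odc and the Dohh table. Foxp3, the defining factor of Treg cells, was called lower in those labelled Dohh-/-, at 61.6 to 179 CPM against 554 to 589 CPM (log2 -2.44, adjusted p = 0.0002), but not in those labelled Odc-/- (log2 -0.23, adjusted p = 0.499). In bulk RNA, fewer cells of a type and less RNA per cell cannot be told apart.

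The 7 genes passed the filter on low counts in both tables, with 13839 genes tested for Odc and 13897 for Dohh. On the mouse build GRCm38, Il10 (ENSMUSG00000016529.5) lies at chr1:131019845-131024974 on the plus strand. Maf (ENSMUSG00000055435.6) is at chr8:115682942-115707794 on the minus strand, where 5.34% of its exon length overlaps the antisense gene Gm15655. Prdm1 (ENSMUSG00000038151.12) is at chr10:44437177-44528501, and Nfil3 (ENSMUSG00000056749.7) at chr13:52967209-52981073, both on the minus strand. Bhlhe40 (ENSMUSG00000030103.11) is at chr6:108660629-108666925 on the plus strand, with 2.51% of its exon length under an antisense gene. Il27ra (ENSMUSG00000005465.8) at chr8:84030294-84042589 and Il10ra (ENSMUSG00000032089.16) at chr9:45253837-45269149 are on the minus strand. Kits that keep strand were used, but whether the counting did is not given in the sources used here.

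Per kilobase of exon, which allows levels of different genes to be compared, Bhlhe40 was the most abundant of the 7 in each of the 4 WT subsets of the Odc table, at 77.3 to 214 CPM per kb. Prdm1 was the least abundant there, at 1.004 to 6.44 CPM per kb. Il10 had the widest ratio between WT subsets of the Odc table, from 1.69 CPM per kb in Treg cells to 126 CPM per kb in TH2 cells. Its receptor chain Il10ra spanned 8.66 CPM per kb in TH17 cells to 68.0 CPM per kb in TH2 cells.

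Among WT cells, Il10 was highest in TH2 cells and lowest in Treg cells in both tables, and all libraries kept the order TH2, TH1, TH17, Treg without overlap. In the Odc table the 4 WT libraries held 193, 152, 151 and 166 CPM in TH2 cells and 92.0, 78.8, 84.2 and 94.7 CPM in TH1 cells. They held 44.1, 35.2, 44.3 and 42.9 CPM in TH17 cells and 2.22, 0.517, 3.57 and 2.56 CPM in Treg cells. TH2 and TH1 cells, neighbours in this order, differed by 0.92 on the log2 scale (edgeR adjusted p = 0.0121), which is below the 2-fold change required for a call. TH17 cells were called lower than TH1 cells (log2 -1.07, adjusted p = 0.0025) and Treg cells lower than TH17 cells (log2 -4.24, adjusted p = 3.97e-10). Without replicate 2 of WT TH17 cells the difference of TH17 and TH1 cells was -0.998 and was not called.

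The WT libraries of the Dohh table repeated the order at lower levels. TH2 cells held 43.6, 41.9 and 42.4 CPM, TH1 cells 20.9, 17.4 and 25.7 CPM, TH17 cells 7.02, 11.2 and 8.20 CPM, and Treg cells 1.81, 0.851 and 0.682 CPM. TH2 and TH1 cells again lay at the threshold (log2 0.998, adjusted p = 0.0297, not called) and were called with RLE size factors, with DESeq2 and without replicate 3 of WT TH1 cells. The tables hold separate WT libraries, whose levels are given side by side without a test.

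Calls for the members among the 6 pairs of WT subsets numbered 26 of 42 for Odc and 19 of 42 for Dohh. Over all genes tested, the percentage called in the Odc table was 8.87% for TH2 against TH1, 14.9% for TH17 against TH1, 19.4% for Treg against TH1, 17.5% for TH17 against TH2, 21.1% for Treg against TH2 and 14.0% for Treg against TH17. For the Dohh table these were 6.21%, 12.4%, 15.5%, 13.7%, 17.1% and 7.07% in the same order. Maf was highest in WT TH17 cells and Prdm1 in WT TH1 cells of both tables. The group means of Nfil3 had the same order as those of Il10, and its TH2 and TH1 levels were not called different in either table (log2 0.07 and 0.57).

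Over the 4 subsets, 3 of 28 tests of the members were called higher and 6 lower in the Odc table, and 8 higher and 5 lower in the Dohh table. In TH1 cells labelled Odc-/- no member was called higher by edgeR, where 10.2% of all genes were (Il10 had an unadjusted p of 0.0292), and 3 of 7 were called lower (Maf, Nfil3 and Il10ra), where 11.3% were. In TH2 cells labelled Odc-/- 1 was called higher (Prdm1, background 11.5%) and 2 lower (Maf and Il10ra, background 13.6%). In TH17 cells labelled Odc-/- Il10 was called higher (background 8.35%) and Maf lower (background 7.21%). In Treg cells labelled Odc-/- Il10 alone was called, with a background of 13.9% higher and 10.1% lower. Bhlhe40 had an unadjusted p of 0.000131 there, below the fold threshold.

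In labelled Dohh-/- cells, TH1 cells had 1 member higher (Il10, background 14.8%) and 2 lower (Maf and Il10ra, background 14.2%). TH2 cells had 2 higher (Il10 and Prdm1, background 14.3%) and none lower by edgeR (background 11.6%; Il10ra had an unadjusted p of 0.0109). TH17 cells had 2 higher (Il10 and Prdm1, background 17.3%) and 2 lower (Maf and Nfil3, background 14.1%). Treg cells had 3 higher (Il10, Prdm1 and Nfil3, background 17.5%) and 1 lower (Maf, background 15.2%). With 7 members, a count of 1 is already near these backgrounds. The median log2 fold change of the members ranged from -0.58 to 0.32 over the 8 comparisons, beside -0.00 to 0.07 for all genes tested. Over all genes, every labelled deficient library lay above every WT library of its subset for 21.5% to 34.3% and below for 19.6% to 32.3%, depending on the comparison.

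**Figure D1:**
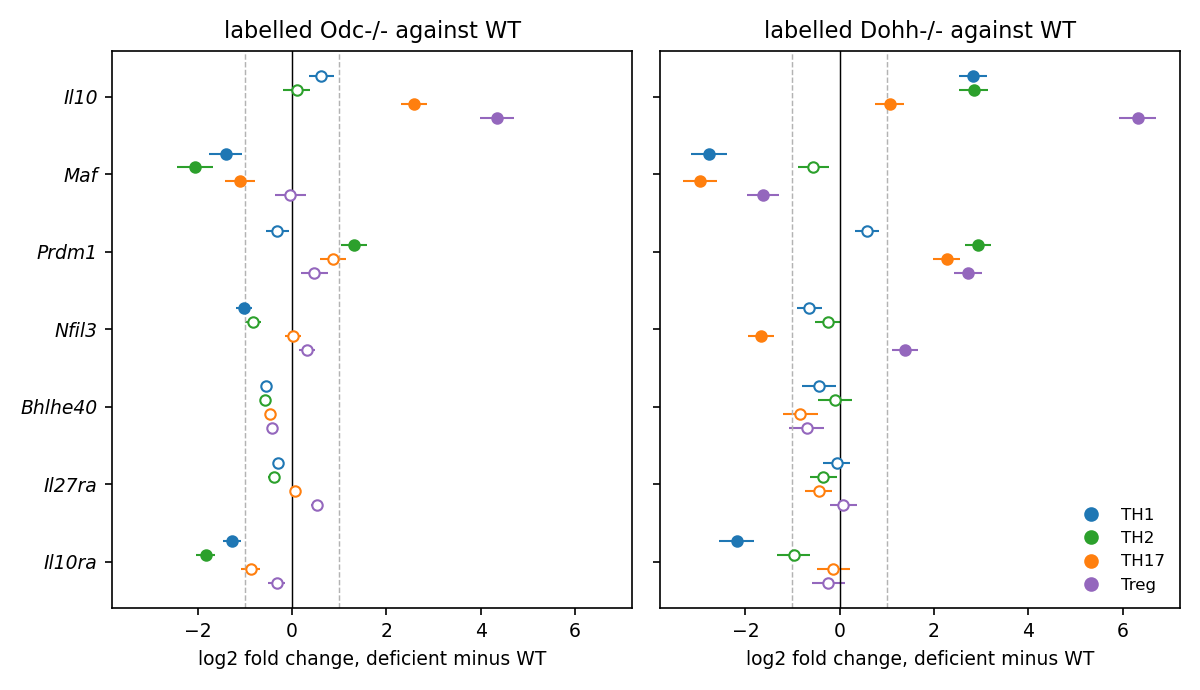
Log2 fold change of each member, labelled deficient minus WT, in the Odc table (left) and the Dohh table (right); colours give the subset, bars are standard errors, filled points were called by edgeR and dashed lines mark the 2-fold threshold. Il10 lies to the right in Treg cells of both tables (4.34 and 6.32), while Maf and Il10ra lie at or left of 0.

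**Figure D2:**
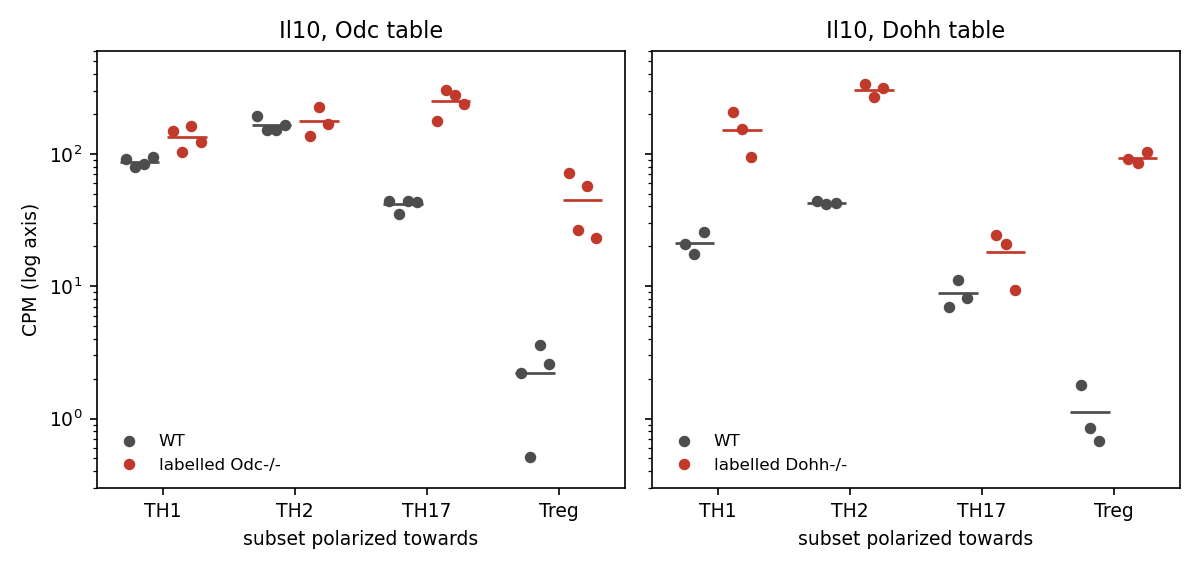
Il10 in each library of the Odc table (left) and the Dohh table (right), in CPM on a log axis, by the subset the cells were polarized towards; points are libraries and bars are group means. Treg cells held 0.517 to 3.57 CPM in WT and 23.2 to 103 CPM in libraries labelled deficient, the widest gap of any subset.

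In labelled Odc-/- cells, Il10 rose in Treg and TH17 cells, the subsets with the least of it in WT. Treg cells labelled Odc-/- held 71.4, 26.7, 57.6 and 23.2 CPM, every library above every WT library. This was a 20.3-fold rise (log2 4.34, SE 0.36, adjusted p = 6.14e-10, n = 4 against 4). TH17 cells held 178, 305, 278 and 239 CPM against 35.2 to 44.3 CPM in WT, a 6.00-fold rise (log2 2.59, SE 0.28, adjusted p = 2.24e-07). These TH17 libraries exceeded those of WT TH2 cells in the same table except for replicate 1, which lay within the WT TH2 range. TH1 cells held 148, 104, 162 and 122 CPM, all above the WT libraries, but the difference was not called (log2 0.61, SE 0.27, adjusted p = 0.0511). TH2 cells held 137, 225 and 168 CPM and overlapped with WT (log2 0.09, SE 0.28, adjusted p = 0.793).

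In labelled Dohh-/- cells, Il10 was called higher in all 4 subsets. Treg cells held 91.1, 84.7 and 103 CPM, a 79.7-fold rise over WT libraries of at most 1.81 CPM (log2 6.32, SE 0.39, adjusted p = 1.03e-10, n = 3 against 3). TH1 cells held 206, 153 and 93.9 CPM (log2 2.82, SE 0.31, adjusted p = 3.95e-07) and TH2 cells 336, 268 and 313 CPM (log2 2.84, SE 0.30, adjusted p = 3.64e-07), in both cases without overlap with WT. TH17 cells showed the smallest rise, with 24.4, 20.9 and 9.37 CPM, of which the last lay within the WT range (log2 1.07, SE 0.31, adjusted p = 0.00658). This call was lost, at a log2 fold change of 0.81 to 0.97, without replicate 1 of the WT or replicate 1 or 2 of the labelled Dohh-/- TH17 libraries.

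Genes of other cell types were higher in many of the same libraries. The summed level of 6 basophil and mast cell genes (Mcpt8, Cpa3, Ms4a2, Fcer1a, Prss34 and Gata2) was 1.24 to 15.3 CPM in WT and 11.02 to 298 CPM in labelled Odc-/- libraries. WT libraries of the Dohh table held 1.22 to 3.32 CPM and labelled Dohh-/- libraries 43.3 to 1118 CPM. All 6 were called higher in each of the 8 comparisons of labelled deficient with WT cells. The sum of 5 myeloid genes (Lyz2, Csf1r, Adgre1, Cd14 and Itgam) was 0.583 to 34.1 CPM in WT and 1.42 to 321 CPM in labelled Odc-/- libraries. By subset it overlapped in TH17 cells only (32.6 to 263 against 13.5 to 34.1 CPM), and Treg cells held 69.5 to 321 against 14.7 to 30.2 CPM. For Dohh it was 0.299 to 20.02 CPM and 2.45 to 4429 CPM, with Itgam at 0 in every library. The sum of 4 B cell genes was 3.16 to 82.8 CPM in WT and 9.48 to 411 CPM labelled Odc-/-, and 2.69 to 49.6 CPM and 4.29 to 48.2 CPM for Dohh. Within each subset of the Odc table it was higher without overlap. TH1 cells held 73.1 to 268 against 5.69 to 30.3 CPM and TH2 cells 233 to 411 against 22.7 to 82.8 CPM. TH17 cells held 9.48 to 16.8 against 3.16 to 5.99 CPM and Treg cells 18.8 to 149 against 3.20 to 5.07 CPM. For Dohh it overlapped in TH1 and TH2 cells and was higher in TH17 and Treg cells. The sum of 4 genes of CD8+ T and NK cells (Cd8a, Cd8b1, Ncr1 and Klrb1c) moved with the subset. With Odc deficiency it was higher in Treg cells, at 151 to 232 CPM against 16.3 to 41.8 CPM. In TH17 cells it was 36.6 to 69.1 CPM and overlapped with the 17.7 to 40.1 CPM of WT. It overlapped in TH1 cells (14.8 to 41.5 against 8.68 to 34.3 CPM) and was lower in TH2 cells (7.11 to 10.6 against 12.5 to 20.7 CPM). Cd8a was called higher in Treg and TH17 cells labelled Odc-/- (log2 3.46 and 1.36). Ncr1, at group means of at most 3.86 CPM, was called higher in TH1, TH2, TH17 and Treg cells labelled Odc-/- (log2 3.53, 2.48, 4.35 and 6.48). Klrb1c was called higher in TH1, TH17 and Treg cells (log2 2.20, 3.02 and 5.17) but not in TH2 cells (log2 0.72). Cd8b1 was not called with Odc deficiency. With Dohh deficiency the sum was 175 to 342 CPM against 20.8 to 26.9 CPM in Treg cells and 88.2 to 152 CPM against 22.7 to 26.2 CPM in TH17 cells, and it overlapped in TH1 and TH2 cells. Cd8a was called higher in TH2, TH17 and Treg cells labelled Dohh-/- (log2 1.97, 4.17 and 4.86). Klrb1c was called higher in TH1 and TH17 cells labelled Dohh-/- (log2 4.58 and 5.67) but not in TH2 cells (log2 1.49). Its log2 fold change was 5.43 in Treg cells. Cd8b1 was called lower in TH1 and TH2 cells labelled Dohh-/- (log2 -1.09 and -1.10), and Ncr1 was not tested for Dohh. Cells of these types can transcribe Il10, negative selection is meant to remove them, and their part in the Il10 differences was not tested.

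Within groups, the libraries with the largest basophil and mast cell sums did not hold a fixed place in the order of Il10. In TH17 cells labelled Dohh-/- these sums were 193, 718 and 1118 CPM in replicates 1, 2 and 3, where Il10 was 24.4, 20.9 and 9.37 CPM. In TH17 cells labelled Odc-/- they were 30.3, 74.5, 298 and 89.7 CPM, where Il10 was 178, 305, 278 and 239 CPM. The highest Il10 of TH1 and of TH2 cells labelled Odc-/- (162 and 225 CPM) was in the library with the largest sum of its group (171 and 61.9 CPM), as was that of Treg cells labelled Dohh-/- (103 CPM, with a sum of 311 CPM). In Treg cells labelled Odc-/- the sums were 38.8, 40.5, 176 and 47.4 CPM, where Il10 was 71.4, 26.7, 57.6 and 23.2 CPM. TH1 cells labelled Dohh-/- had sums of 53.2, 327 and 298 CPM, where Il10 was 206, 153 and 93.9 CPM. TH2 cells labelled Dohh-/- had sums of 43.3, 399 and 397 CPM, where Il10 was 336, 268 and 313 CPM. In both of these groups the highest Il10 was in the library with the smallest sum. The other sums, by replicate 1 to 4, also varied within TH17 and Treg cells labelled Odc-/-. The myeloid sums were 32.6, 100, 263 and 80.0 CPM in TH17 and 69.5, 113, 321 and 86.0 CPM in Treg cells. Those of CD8+ T and NK cells were 69.1, 45.0, 55.2 and 36.6 CPM and 215, 176, 232 and 151 CPM. Those of B cells were 13.8, 16.8, 9.48 and 14.2 CPM and 149, 44.6, 18.8 and 22.9 CPM. Their relation to Il10 was not tested. Without the 4 libraries with Lyz2 above 1000 CPM, an alternative added after the data were seen that leaves 1 labelled Dohh-/- library in each of these subsets, Il10 was still called in TH17 cells (log2 1.48, adjusted p = 0.00603) and in Treg cells (log2 6.25, adjusted p = 7.33e-09). The lone library is there assumed to vary like the other groups.

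**Figure D3:**
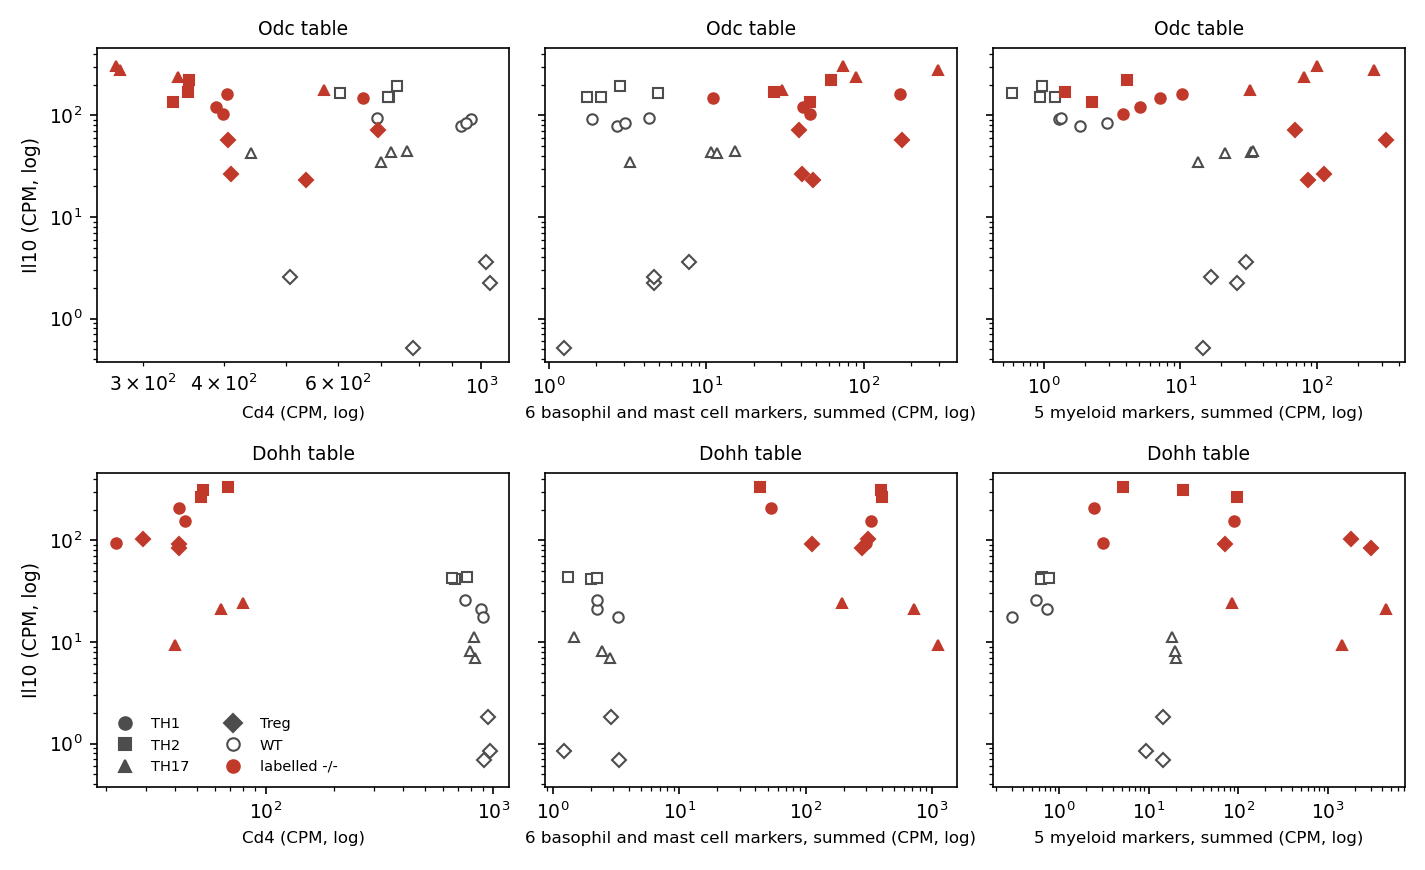
Il10 against Cd4 (left), the sum of 6 basophil and mast cell genes (middle) and the sum of 5 myeloid genes (right) in each library, all in CPM on log axes, for the Odc table (top) and the Dohh table (bottom); open grey symbols are WT, filled red symbols are labelled deficient, and shapes give the subset. In the Dohh table the labelled Dohh-/- libraries form a group apart on Cd4 (22.1 to 79.7 CPM against 661 to 968 CPM in WT) and on the basophil and mast cell sum.

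The rise of Il10 differed between subsets in both tables by the interaction test of edgeR (adjusted p = 2.34e-07 for Odc and 3.11e-06 for Dohh). Interaction was called for 6 of the 7 members in the Odc table, where 34.8% of all genes were called, and for 5 of the 7 in the Dohh table, against 17.9% of all genes. The Odc and Dohh effects, each against its own WT cells, were compared in 1 fit of the 12924 genes tested in both tables. The Il10 effect was larger with Dohh than with Odc deficiency in TH1 cells (difference 2.24 on the log2 scale, SE 0.42, adjusted p = 0.000125), in TH2 cells (2.74, SE 0.43, adjusted p = 1.09e-05) and in Treg cells (2.00, SE 0.58, adjusted p = 0.00699). In TH17 cells it was smaller (-1.46, SE 0.44, adjusted p = 0.0118), a call that was lost without the Lyz2-rich libraries (-1.07, adjusted p = 0.206) and without replicate 2 of the WT or replicate 3 of the labelled Dohh-/- TH17 libraries of the Dohh table. In TH1 cells the labelled deficient means were close, at 134 CPM ± 25.9 (SD, n = 4) for Odc and 151 CPM ± 56.3 (SD, n = 3) for Dohh, whereas the WT means were 87.4 CPM ± 7.30 and 21.4 CPM ± 4.14. Of 28 such differences over the members and subsets, 12 were called. The percentage called over all genes was 11.3% in TH1, 10.3% in TH2, 14.0% in TH17 and 17.5% in Treg cells, and the members called numbered 1, 3, 4 and 4 of 7.

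Maf, which encodes the transcription factor c-Maf, was called lower in 6 of the 8 comparisons, and in 4 of these Il10 was called higher. In WT TH17 cells, where it was highest, it held 684, 617, 698 and 508 CPM beside labelled Odc-/- cells and 317, 316 and 276 CPM beside labelled Dohh-/- cells. TH17 libraries labelled Odc-/- held 271, 334, 242 and 318 CPM and those labelled Dohh-/- held 48.1, 46.9 and 21.3 CPM. No library labelled deficient reached the WT range of its own table, and both falls were called (log2 -1.10, adjusted p = 0.00772, and log2 -2.96, adjusted p = 1.36e-06).

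Maf was also called lower in TH1 cells of both tables and in TH2 cells of the Odc table. TH1 cells held 41.3 to 89.7 CPM in WT and 11.2 to 47.9 CPM labelled Odc-/-, with overlap (log2 -1.41, adjusted p = 0.00143), and 33.3 to 56.3 CPM against 4.42 to 7.94 CPM labelled Dohh-/- (log2 -2.77, adjusted p = 6.58e-06). TH2 cells held 237, 134, 227 and 78.3 CPM in WT and 27.2, 57.0 and 37.7 CPM labelled Odc-/- (log2 -2.06, adjusted p = 7.55e-05), whereas the Dohh table gave 59.3 to 105 CPM and 39.8 to 80.4 CPM with overlap (log2 -0.56, adjusted p = 0.178). Lower T cell sums stood beside the falls of Maf, Nfil3 and Il10ra in TH1 and of Maf and Il10ra in TH2 cells labelled Odc-/-. Such a sum also stood beside the fall of Maf in Treg cells labelled Dohh-/-, where the sum without Cd4 overlapped with WT. The part of the sums in these falls was not tested. Treg cells, with the largest rise of Il10 in both tables, held 54.4 to 83.0 CPM of Maf in WT and 48.7 to 84.3 CPM labelled Odc-/- (log2 -0.04, adjusted p = 0.936). Labelled Dohh-/- Treg cells fell to 38.0, 32.6 and 19.9 CPM from 133, 62.1 and 85.0 CPM (log2 -1.63, adjusted p = 0.000459). Maf thus fell in TH1 and TH17 cells of both tables, in TH2 cells with Odc deficiency and in Treg cells with Dohh deficiency. Its effect differed between subsets (adjusted p = 0.0148 for Odc and 0.00291 for Dohh), the first of which was lost without a filter on low counts (adjusted p = 0.0528).

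The Dohh effect on Maf was more negative than the Odc effect in TH17 cells (difference -1.79, adjusted p = 0.00689) and in Treg cells (-1.55, adjusted p = 0.0166), and less negative in TH2 cells (1.49, adjusted p = 0.0393). Each of these calls was lost under some alternative. Without the Lyz2-rich libraries the TH17 difference was -1.51 (adjusted p = 0.126) and the Treg difference -1.21 (adjusted p = 0.182). The TH2 difference was lost when any of 8 single libraries was left out, the lowest value being 1.21 (adjusted p = 0.135).

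**Figure D4:**
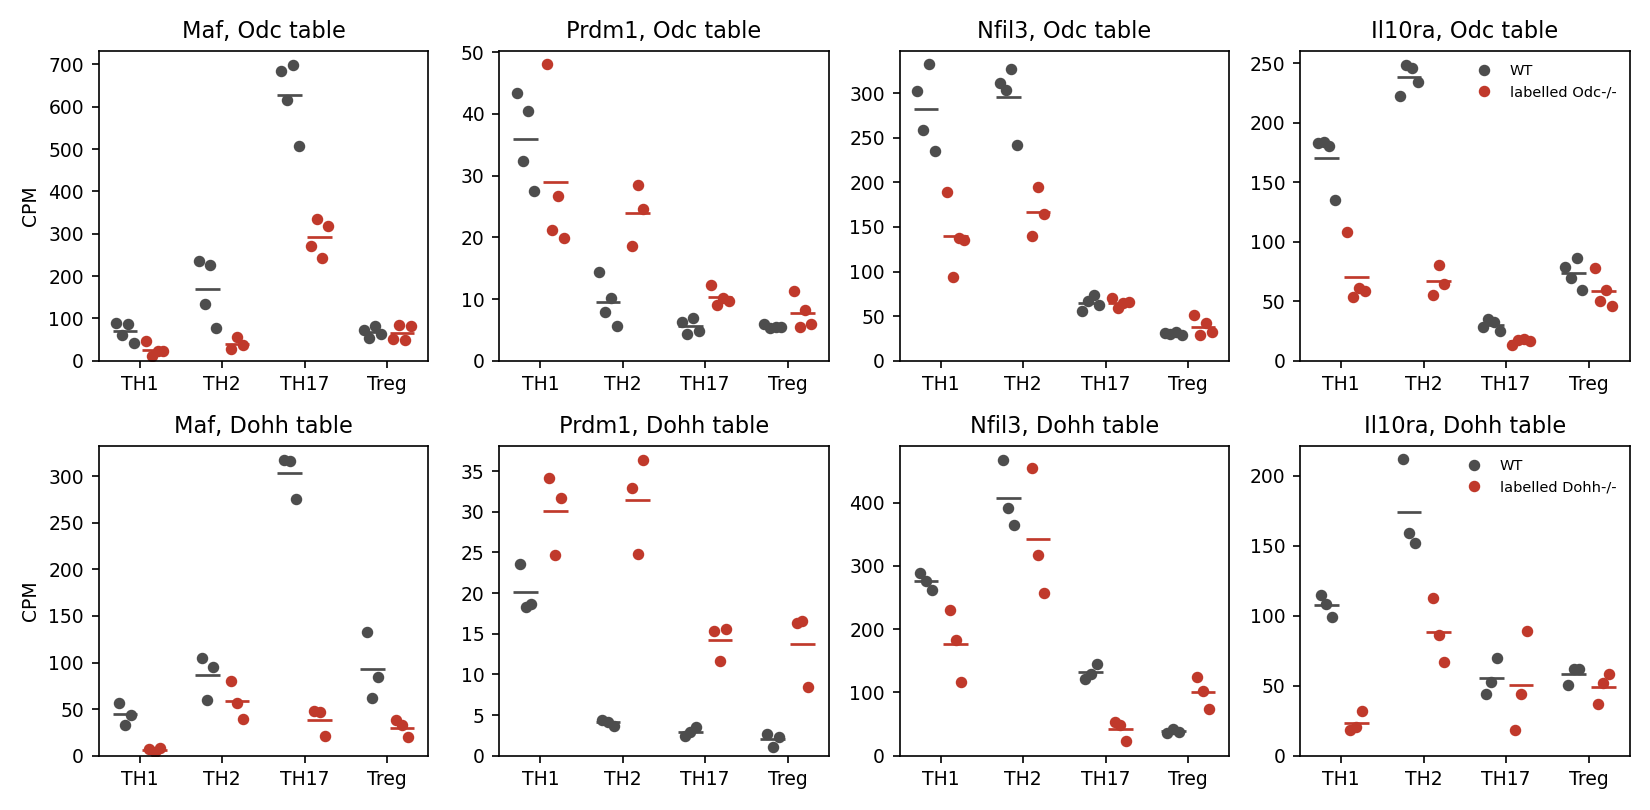
Maf, Prdm1, Nfil3 and Il10ra (left to right) in each library of the Odc table (top) and the Dohh table (bottom), in CPM on linear axes that start at 0; points are libraries, bars are group means, grey is WT and red is labelled deficient. In TH17 cells Maf falls from 508 to 698 CPM in WT to at most 334 CPM in the Odc table. In the Dohh table it falls there from 276 to 317 CPM to at most 48.1 CPM. Prdm1 rises in TH2 cells of both tables.

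Prdm1 encodes Blimp-1, a repressor that marks terminally differentiated effector cells and is required for Il10 in several T cell settings. It was called higher in 4 of the 8 comparisons. In labelled Odc-/- cells it was called in TH2 cells, where Il10 was not. TH2 cells held 14.3, 7.87, 10.2 and 5.69 CPM in WT and 18.6, 28.5 and 24.5 CPM labelled Odc-/- (log2 1.32, SE 0.28, adjusted p = 0.000235). TH17 cells labelled Odc-/- held 9.07 to 12.2 CPM against 4.33 to 7.01 CPM, without overlap but below the 2-fold threshold (log2 0.87, adjusted p = 0.0127). Treg cells (log2 0.47, adjusted p = 0.157) and TH1 cells (log2 -0.31, adjusted p = 0.282) overlapped with WT.

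With Dohh deficiency, Prdm1 was higher in every labelled Dohh-/- library than in any WT library of the same subset, as were 24.2%, 32.2%, 29.9% and 34.3% of all genes tested in TH1, TH2, TH17 and Treg cells. TH2 cells held 4.44, 4.12 and 3.70 CPM in WT and 32.9, 24.9 and 36.4 CPM labelled Dohh-/- (log2 2.93, SE 0.28, adjusted p = 9.27e-08). TH17 cells rose from 2.42, 2.93 and 3.46 CPM to 15.3, 11.7 and 15.6 CPM (log2 2.27, adjusted p = 2.34e-06). Treg cells rose from 2.71, 1.09 and 2.30 CPM to 16.4, 16.6 and 8.45 CPM (log2 2.71, adjusted p = 2.24e-07). TH1 cells, whose WT level was the highest at 18.2 to 23.6 CPM, held 24.6 to 34.1 CPM and were not called (log2 0.58, adjusted p = 0.0625). The Dohh effect exceeded the Odc effect in TH2 (1.61), TH17 (1.46) and Treg cells (2.28), with edgeR adjusted p of 0.00441, 0.00858 and 5.54e-05.

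Bcl6 and Bach2, repressors that oppose Prdm1 in lymphocytes, are shown because their balance with Prdm1 is well known. Bach2 was called lower in TH1 and Treg cells of the Odc table and in all 4 subsets of the Dohh table. Its largest fall was in Treg cells labelled Dohh-/-, from 156, 109 and 145 CPM to 14.1, 15.6 and 7.22 CPM (log2 -3.47, adjusted p = 1.90e-09). Bcl6 changed in both directions. It fell in TH17 and Treg cells of both tables and in labelled Dohh-/- TH2 cells (log2 -1.02 to -2.17), and it rose in labelled Odc-/- TH2 cells (log2 1.75, adjusted p = 2.86e-05) and labelled Dohh-/- TH1 cells (log2 1.62, adjusted p = 0.00688). The last of these rests on replicate 3, at 30.8 CPM beside 4.599 and 5.997 CPM.

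Promoter windows of 300 bases, 250 before to 50 after a RefSeq start site on GRCm38.p6, were at hand for 2 of the 7 members, Prdm1 and Nfil3. That of Prdm1 is printed because Prdm1 was, among the 7 members, the regulator with the most calls in the direction of Il10. The window is also printed because it holds a match to a motif of AP-1, the factor family of Batf and Junb that acts at Il10 and Prdm1 in T cells. It spans chr10:44458699-44458998 on the minus strand, around a start inside the longest gene model. Capitals mark the letters TGANTCA, read on both strands, whose match begins 48 bases before the start site.
Prdm1 promoter: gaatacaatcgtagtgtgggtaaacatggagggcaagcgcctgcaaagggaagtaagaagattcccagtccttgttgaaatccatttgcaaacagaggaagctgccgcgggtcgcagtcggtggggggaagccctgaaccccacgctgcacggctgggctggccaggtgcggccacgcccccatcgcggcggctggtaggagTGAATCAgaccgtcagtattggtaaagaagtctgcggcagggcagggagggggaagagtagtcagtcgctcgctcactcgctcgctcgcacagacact

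This motif is found in 7.81% of the 32851 promoter windows of that length. The Prdm1 window holds no match to the letters searched for Maf (TGCTGA, 19.5% of windows), Prdm1 itself (GAAAGT, 14.3%), Nfil3 (TTANNTAA, 6.00%), Bhlhe40 (CACGTG, 7.15%) or STAT proteins (TTCNNNGAA, 8.30%). The Nfil3 window, chr13:52980990-52981289 on the minus strand, holds none of the 6. These matches describe letters in a short window and say nothing of binding.

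Nfil3, a basic leucine zipper factor, was abundant in WT TH1 and TH2 cells and low in TH17 and Treg cells, the members' pattern nearest to that of Il10. It was called lower in TH1 cells labelled Odc-/-, from 303, 259, 332 and 234 CPM to 190, 94.4, 137 and 136 CPM (log2 -1.02, SE 0.17, adjusted p = 1.83e-05). Without replicate 3 of the WT or replicate 2 of the labelled Odc-/- libraries this value fell below the 2-fold threshold (log2 -0.95 and -0.87). TH2 cells of that table were lower without overlap but not called, with 242 to 327 CPM in WT and 140 to 195 CPM labelled Odc-/- (log2 -0.83, adjusted p = 0.00032). TH17 cells (log2 0.01, which turns to -0.02 with RLE size factors) and Treg cells (log2 0.32) overlapped.

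With Dohh deficiency, Nfil3 changed in opposite directions in TH17 and Treg cells. TH17 cells fell from 121, 129 and 146 CPM to 53.7, 48.1 and 22.7 CPM (log2 -1.66, SE 0.28, adjusted p = 5.17e-05). Treg cells rose from 36.0, 41.5 and 37.2 CPM to 124, 102 and 74.0 CPM (log2 1.39, SE 0.27, adjusted p = 0.000264). Groups did not overlap in either subset. TH1 cells were below the fold threshold (log2 -0.64, adjusted p = 0.0497), and TH2 cells overlapped (log2 -0.25, adjusted p = 0.461). The effect differed between subsets in both tables (adjusted p = 0.000153 and 9.56e-05), and the Dohh effect differed from the Odc effect in TH17 cells (-1.62, adjusted p = 0.000185) and in Treg cells (1.11, adjusted p = 0.00675). In Treg cells the latter fell to 0.91, under the fold threshold, without replicate 1 of labelled Dohh-/- cells.

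Bhlhe40, the repressor of Il10 in this set, was not called in any of the 8 comparisons. In the Odc table all labelled Odc-/- libraries were nevertheless below all WT libraries of their subset, as for 21.5%, 30.5%, 19.6% and 20.6% of all genes tested in TH1, TH2, TH17 and Treg cells. TH1 cells held 990 to 1023 CPM in WT and 597 to 787 CPM labelled Odc-/- (log2 -0.56, adjusted p = 3.08e-05), TH2 cells 661 to 764 and 411 to 522 CPM (log2 -0.58, adjusted p = 4.09e-05), TH17 cells 459 to 533 and 329 to 421 CPM (log2 -0.46, adjusted p = 0.000352), and Treg cells 352 to 380 and 241 to 300 CPM (log2 -0.42, adjusted p = 0.000456). The difference was close to 1.5-fold or less in each subset, and the interaction was not called. The log2 fold changes with Dohh deficiency were -0.44, -0.09, -0.83 and -0.70 in TH1, TH2, TH17 and Treg cells, with adjusted p of 0.324, 0.852, 0.061 and 0.109. TH1 cells labelled Dohh-/- were spread widely, with 446 and 235 CPM in replicates 1 and 2 and 1139 CPM in replicate 3, against 717 to 881 CPM in WT. Without replicate 3 the difference was called (log2 -1.27, adjusted p = 0.00106). In TH17 and Treg cells every labelled Dohh-/- library was below every WT library, and TH17 cells were called without replicate 1 of labelled Dohh-/- cells (log2 -1.21, adjusted p = 0.0162).

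Il27ra was likewise not called in any comparison. It lay between 68.3 and 183 CPM in WT libraries of the Odc table and was highest in TH17 and lowest in Treg cells. Treg cells labelled Odc-/- held 117, 97.8, 84.1 and 103 CPM against 69.2, 68.3, 71.5 and 71.8 CPM, without overlap (log2 0.52, adjusted p = 0.000281). TH2 cells were lower without overlap, with 84.7 to 89.0 CPM against 103 to 126 CPM (log2 -0.39, adjusted p = 0.00719), and TH1 cells lower with overlap (log2 -0.29, adjusted p = 0.0271). The interaction was called in the Odc table (adjusted p = 0.000268). Every subset of the Dohh table overlapped, with log2 fold changes of -0.44 to 0.08 and adjusted p of at least 0.199.

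Il10ra, the chain of the receptor that binds interleukin-10, fell in TH1 cells of both tables and in TH2 cells labelled Odc-/-, the subsets where WT cells held the most of it. TH1 cells held 183, 184, 181 and 135 CPM in WT and 108, 53.7, 61.5 and 58.5 CPM labelled Odc-/- (log2 -1.28, SE 0.18, adjusted p = 4.88e-06). TH2 cells held 222, 249, 246 and 235 CPM in WT and 55.3, 80.4 and 64.2 CPM labelled Odc-/- (log2 -1.84, SE 0.21, adjusted p = 1.28e-07). Labelled Dohh-/- TH1 cells fell from 115, 109 and 99.0 CPM to 18.5, 20.5 and 32.0 CPM (log2 -2.18, SE 0.37, adjusted p = 7.08e-05). None of these groups overlapped.

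The other Il10ra differences were smaller or more variable. TH2 cells of the Dohh table were lower without overlap but just under the fold threshold (66.9 to 113 CPM against 152 to 212 CPM, log2 -0.98, adjusted p = 0.0279), and they were called when any of 3 single libraries was left out. TH17 cells labelled Odc-/- held 13.3 to 18.6 CPM against 24.9 to 35.4 CPM (log2 -0.88, adjusted p = 0.00084). TH17 libraries labelled Dohh-/- held 18.6, 44.4 and 89.1 CPM and overlapped with WT (log2 -0.14, adjusted p = 0.764). Without the Lyz2-rich libraries only the first of them remains, and Il10ra was called lower (log2 -1.57, adjusted p = 0.00333). Treg cells overlapped in both tables (log2 -0.33 and -0.25). The effect on Il10ra differed between subsets in both tables (adjusted p = 0.000671 and 0.0181), the second of which was lost without a filter on low counts (adjusted p = 0.0571) and without replicate 1 or 2 of labelled Dohh-/- TH1 cells (adjusted p = 0.0515 and 0.0524). No Odc and Dohh difference was called for Il10ra, the widest being -0.88 in TH1 cells (SE 0.39, adjusted p = 0.0955). It was called in TH1 cells without replicate 3 (-1.15) and in TH17 cells without replicate 1 (1.21) of the labelled Dohh-/- libraries.

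Among 6 genes of interleukin-10 receptor signalling (Il10rb, Jak1, Tyk2, Stat3, Socs3 and Bcl3), none was called higher in any comparison, and between 0 and 2 were called lower in each, beside backgrounds over all genes of 8.35% to 17.5% higher and 7.21% to 15.2% lower. Socs3, a feedback inhibitor induced through STAT3, fell in 4 comparisons. Its levels went from 390 to 579 CPM to 95.4 to 149 CPM in TH2 cells labelled Odc-/- (log2 -2.15, adjusted p = 1.56e-06), and in the Dohh table it fell by 1.62 in TH1, 1.74 in TH2 and 2.31 in TH17 cells on the log2 scale. In Treg cells, where Il10 rose most, Socs3 was not called in either table (log2 -0.19 and -0.57). Stat3 was called lower only in Treg cells labelled Dohh-/- (log2 -1.05, adjusted p = 0.000275). Bcl3 was called lower in TH2 cells labelled Odc-/- (log2 -1.02, adjusted p = 4.83e-07) and TH17 cells labelled Dohh-/- (log2 -1.03, adjusted p = 0.000944).

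Of 10 genes of cytokine inputs to Il10, Il6ra, the interleukin-6 receptor chain, was called lower in all 8 comparisons. The fall was 1.03 to 2.27 on the log2 scale with Odc deficiency and 2.82 to 6.19 with Dohh deficiency, where TH1 cells went from 52.7, 42.8 and 56.6 CPM to 0.92, 1.10 and 0.11 CPM. Il6st, the signalling chain shared by the interleukin-6 and interleukin-27 receptors, fell in TH2, TH17 and Treg cells labelled Dohh-/- (log2 -1.16, -1.30 and -1.90). Il21, a cytokine that induces Il10, fell in TH1, TH2 and TH17 cells labelled Dohh-/- (log2 -1.55, -2.93 and -2.41) and in TH2 cells labelled Odc-/-, from 352, 243, 321 and 160 CPM to 59.0, 110 and 106 CPM (log2 -1.55, adjusted p = 0.000202). In Treg cells labelled Dohh-/- it rose, from at most 0.602 CPM to 5.97, 3.33 and 1.34 CPM (log2 3.66, adjusted p = 0.00113). Il12rb2, a chain of the interleukin-12 receptor, fell in TH2 and TH17 cells labelled Odc-/- (log2 -1.10 and -1.35) and TH1 cells labelled Dohh-/- (log2 -1.93). Il27, a subunit gene of interleukin-27, was called in TH2 cells labelled Odc-/-, where it rose from 2.27 to 5.69 CPM to 12.8 to 14.3 CPM (log2 1.65, adjusted p = 0.000168). Ebi3, the gene of the other subunit, was not called there (log2 -0.33). It was called lower in Treg cells labelled Odc-/- (log2 -1.01) and in TH1 and TH2 cells labelled Dohh-/- (log2 -1.14 and -1.37). In labelled Dohh-/- Treg cells its log2 fold change was -1.85, and in TH17 cells it was not called (log2 0.62). Over the list, 0 to 2 genes were called higher and 1 to 4 lower per comparison, beside the backgrounds given above.

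Of 13 other transcription factors with a known part in Il10 expression, 1 to 4 were called higher and 1 to 5 lower per comparison, where the backgrounds of 8.35% to 17.5% higher and 7.21% to 15.2% lower again apply. Ets1 fell in all 8 comparisons, by 1.16 to 1.55 on the log2 scale, and Irf4 in 5 (log2 -1.02 to -2.10). Tbx21, which encodes the TH1 factor T-bet, rose in 7 of the 8, the exception being labelled Odc-/- TH1 cells (log2 0.41, adjusted p = 0.241). Ahr, the aryl hydrocarbon receptor, moved with the subset. It rose in Treg cells, from 10.1 to 16.7 CPM to 43.3 to 59.2 CPM labelled Odc-/- (log2 1.81, adjusted p = 4.55e-08) and from 6.20 to 18.1 CPM to 21.1 to 33.2 CPM labelled Dohh-/- (log2 1.13, adjusted p = 0.0285). It fell in TH2 cells of both tables (log2 -1.67 and -2.37) and in TH17 cells labelled Dohh-/- (log2 -1.77). Egr2, an early growth response factor, rose in TH1 cells (log2 1.90 labelled Odc-/- and 1.74 labelled Dohh-/-) and in TH17 cells (log2 1.22 and 2.17). The rise in TH1 cells labelled Dohh-/- rests on replicate 3, at 58.9 CPM beside 9.10 and 6.47 CPM. Stat4, which carries interleukin-12 signals, fell in TH17 cells (log2 -2.03 and -1.78) and Treg cells (log2 -1.29 and -1.56) of the Odc and the Dohh tables. Gata3, the defining factor of TH2 cells, fell in Treg cells labelled Dohh-/-, from 46.2 to 60.0 CPM to 10.5 to 13.4 CPM (log2 -2.12, adjusted p = 2.20e-07).

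Genes beside Il10 on chromosome 1 did not move as a block. Il24, a cytokine gene of the Il10 family, rose with Il10 in Treg cells, from 1.86 to 8.26 CPM to 20.002 to 87.3 CPM labelled Odc-/- (log2 3.14, adjusted p = 4.86e-07) and from 2.98 to 4.97 CPM to 45.2 to 100 CPM labelled Dohh-/- (log2 4.03, adjusted p = 0.00055). It also rose in TH17 cells labelled Odc-/- (log2 1.53, adjusted p = 0.000857), but in TH1 cells labelled Dohh-/-, where Il10 rose, it fell (log2 -2.12, adjusted p = 0.0201, with replicate 3 at 2.65 CPM beside 158 and 170 CPM). Pigr rose in Treg cells labelled Odc-/-, from 1.91 to 4.08 CPM to 24.6 to 36.2 CPM (log2 3.23, adjusted p = 1.77e-06), and fell in those labelled Dohh-/-, from 2.33 to 3.83 CPM to at most 0.206 CPM, under what a count of 0 allows (adjusted p = 0.000493). Of the 8 neighbours, 7 were tested in the Odc table, with 1, 0, 2 and 4 called higher and 0, 2, 0 and 0 lower in TH1, TH2, TH17 and Treg cells, beside the same backgrounds. For Dohh 6 were tested, with 0, 0, 0 and 1 higher and 1, 0, 1 and 1 lower. Il19, another cytokine gene of this family, was called lower in TH2 cells labelled Odc-/- (log2 -1.42, adjusted p = 0.0325) and higher in Treg cells labelled Odc-/-, at 0.361 to 1.04 CPM against at most 0.115 CPM.

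The genes whose pattern was most like that of Il10 were found over the 8 group means of each table among 12923 genes, taking the lower of the 2 Pearson correlations of log2 CPM. Rer1 (0.94), Id2 (0.93), Tmem41a (0.93), Gorasp2 (0.92) and B4galt2 (0.92) led. With single libraries in place of group means, Id2 and B4galt2 stayed among the first 5. Of the members, Nfil3 came nearest, at rank 777 (0.63), followed by Prdm1 at rank 1383 (0.54, with 0.81 in the Dohh table alone). Maf stood at rank 8922, with 0.04 for Odc and -0.53 for Dohh. Correlations over 8 groups that share genotype and cell composition describe these libraries only.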

How the data were processed

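RNA was sequenced with a stranded mRNA kit. Per the labels and the submitters' processing notes, reads were mapped with STAR to mm10 and counted with featureCounts; deepTools and DESeq2 are also named. The authors deposited raw counts of reads per gene, not normalized, in 2 tables. Of 56 samples, 55 had a column, and replicate 1 of labelled Odc-/- TH2 cells was not analysed here. All columns were used. Identifiers were matched to GENCODE M21 (GRCm38), leaving 627 of 47937 without a match.

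Each table was analysed with edgeR 4.0.16 in R 4.3.3 (filterByExpr over 8 groups, TMM, robust quasi-likelihood fit with 1 mean per group), with Benjamini-Hochberg adjustment over all genes tested. A gene was called at a fold change above 2 and adjusted p below 0.05. Interactions were called on adjusted p alone. Replicates are described as biological, but not as separate animals, so p-values measure the spread between these libraries. The upper limit for a gene without counts was set at 3 counts and covers counting error only. No labelled batch was given. The steps were tested on simulated data.

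The 7 members, the gene lists and the tests were chosen with earlier results of these data known. The 7 members are all named. Some lists are spelled out in full. A gene of the other lists is named only if it checks a label or stood out. Standing out means a call in at least 1 comparison and the list's largest or smallest change in one. Ebi3 is named as the partner of Il27. The 5 genes most like Il10 are named. The correlation of same-numbered libraries across genotypes was over 0.1 in 7 of 15 pairs for Odc (-0.086 to 0.196, median 0.007) and 1 of 12 for Dohh (-0.027 to 0.136, median -0.012). As this was not so for every pair, replicate numbers were not used as a block in the main fits. That reason covers pairs across genotypes only, and not the tests between subsets. Alternatives were RLE size factors, DESeq2 1.42.0, other count filters, only the compared groups, no fold threshold, replicate blocks, each library left out, and removal of Lyz2-rich libraries, added after the data were seen. Promoter windows come from RefSeq (GRCm38.p6).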

Additional observations from a re-analysis of the deposited data

Results flagged for a closer look

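The effect of deficiency differed between subsets, by edgeR's interaction test, for Il10 (adjusted p = 2.34e-07), Maf (0.0148), Prdm1 (0.00614), Nfil3 (0.000153), Il27ra (0.000268) and Il10ra (0.000671) in the Odc table. In the Dohh table it differed for Il10 (adjusted p = 3.11e-06), Maf (0.00291), Prdm1 (0.000362), Nfil3 (9.56e-05) and Il10ra (0.0181). Without a filter on low counts Maf was not called for Odc (adjusted p = 0.0528), nor Il10ra for Dohh (0.0571).

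The Dohh effect differed from the Odc effect for Il10 in all 4 subsets (log2 difference 2.24 in TH1, 2.74 in TH2, -1.46 in TH17 and 2.00 in Treg cells). For Maf the differences were 1.49 in TH2, -1.79 in TH17 and -1.55 in Treg cells, for Prdm1 1.61, 1.46 and 2.28 in the same subsets, and for Nfil3 -1.62 in TH17 and 1.11 in Treg cells. Without the Lyz2-rich libraries the TH17 call of Il10 (-1.07) and the TH17 and Treg calls of Maf (-1.51 and -1.21) were lost. Leaving out single libraries also ended the Il10 call in TH17 cells (lowest size -1.17) and the Maf call in TH2 cells (lowest 1.21). The Nfil3 call in Treg cells was lost without replicate 1 of labelled Dohh-/- cells (0.91).

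Single libraries lay far from the other 3 of their group in 4 of 49 groups of 4 libraries tested over the members, and chance alone gives about 1 in 20. The gap to the nearest library, as a share of the group's range, was 0.840 for Il10 in WT TH17 replicate 2 (35.2 CPM), 0.939 for Il27ra in labelled Odc-/- TH1 replicate 1 (115 CPM), 0.942 for Il10ra in WT TH1 replicate 4 (135 CPM) and 0.857 for Il10ra in labelled Odc-/- TH1 replicate 1 (108 CPM), all in the Odc table.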

How the results depend on the processing

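Il10 kept its direction and call in all 8 comparisons with RLE size factors, with DESeq2, without a filter, with a stricter one (mean count 50), in fits of just the groups compared, with the replicate block and with no fold threshold. Without single libraries, Il10 ranged from 0.81 to 1.38 (log2) in labelled Dohh-/- TH17 cells, losing the call in 3 of 6 cases, and from -0.12 to 0.25 in labelled Odc-/- TH2 cells. With no fold threshold the members called became 5 in TH1, 6 in TH2, 5 in TH17 and 3 in Treg cells labelled Odc-/-, adding chiefly Bhlhe40 and Il27ra. The share of all genes called on adjusted p alone was not worked out, so these counts have no background beside them. The backgrounds given above require a 2-fold change and do not apply to them. Nfil3 in labelled Odc-/- TH17 cells turned to -0.0222 (RLE), -0.0227 (DESeq2), -0.0143 (no filter) and -0.0118 (2 groups). Maf in labelled Odc-/- Treg cells turned to 0.0326 with the replicate block, which changed no call in the 8 comparisons, kept 26 and 19 calls among WT pairs and gave 13 in place of 12 Odc and Dohh differences. Without single libraries, signs also changed for values near 0: Nfil3 (-0.050 to 0.079) and Il27ra (-0.033 to 0.12) in labelled Odc-/- TH17, Maf in labelled Odc-/- Treg (-0.17 to 0.088), Il27ra in labelled Dohh-/- TH1 (-0.57 to 0.26) and Treg (-0.074 to 0.15), and Il10ra in labelled Dohh-/- TH17 cells (-0.80 to 0.26). The causes were not tested. With 3 or 4 libraries a group, and 0.517 to 3.57 CPM of Il10 in WT Treg libraries, fold changes in Treg cells rest on a low base. Same-numbered libraries of 1 genotype correlated above 0.1 across subsets in 44 of 45 Odc and 28 of 36 Dohh pairs. The main tests between subsets leave this sharing out. A block by genotype and replicate number left the 4 counts of member calls for WT pairs and interactions about the same.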
